A study of Mus musculus with 24 samples.

Results

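The complex I subunit genes are the nuclear genes that code for the parts of mitochondrial complex I. They were taken here as the protein-coding mouse genes whose symbol starts with Ndufa, Ndufb, Ndufc, Ndufs or Ndufv followed by a number, together with Ndufab1. This rule found 41 genes. Ndufb1 had no row in the deposited table, and the other 40 had values, out of 15878 gene identifiers with values in all. Of the 40, 39 had enough counts to be tested, among 10219 genes tested. Genes of the Ndufaf series, which code for assembly factors, are not members, and 4 pseudogenes (Ndufa11b, Ndufa12-ps, Ndufs5-ps and Ndufs6b) were left out.

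The samples were microglia, resident brain macrophages, sorted from wild-type mice at 28 days, and their RNA was amplified by Smart-seq2. There were 4 groups of 6 libraries. The WD-Exos and ND-Exos groups were BCAS mice injected through the tail vein with 100 µg of WD-Exos or ND-Exos every 3 days over the 28 days. The BCAS group was BCAS mice given PBS, and the Sham group was sham mice given PBS. BCAS usually stands for bilateral carotid artery stenosis, in which narrowed carotid arteries leave the forebrain short of blood, and both exosome groups carried it too. Per the title of the series, the exosomes (small vesicles that cells release) came from foam cells, and the question was whether they pass metabolic defects to microglia in ischemic white matter injury. The labels do not spell out ND and WD. Whether the 6 samples of a group are 6 mice is not stated either, so p-values here measure only the spread between samples, part of which may be technical.

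Complex I, the NADH to ubiquinone oxidoreductase, is the first and largest enzyme of the respiratory chain. Its peripheral arm stands in the mitochondrial matrix and takes electrons from NADH, passing them along a chain of iron-sulfur clusters to ubiquinone, and its membrane arm pumps protons across the inner membrane. The catalytic core of the peripheral arm is coded in the nucleus, the core of the membrane arm in mitochondrial DNA, and many accessory subunits, all nuclear, surround and stabilize both arms. Microglia respire through this complex and also use glycolysis, and activated macrophages are known to change the balance between them.

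Transcription of nuclear respiratory genes is known to involve NRF1, GABPA, YY1, ESRRA and SP1. Promoters, taken as the 250 bases before and 50 bases after each gene's start in RefSeq (assembly GRCm38.p6), were found for 34 of the 40 members and read on both strands for 1 motif of each factor. The NRF1 motif, a near-palindrome of GC-rich letters shown in capitals in Ndufa6 and Ndufs6 below, was present in 7 of 34 members (20.6%), against 12.7% of 8343 tested genes with a promoter and 5.19% of all genes. The YY1 motif AAGATGGCG was present in 5 of 34 (14.7%), against 4.02% of tested genes and 1.64% of all genes. The SP1 motif GGGGCGGGG was also in 5 of 34 (14.7%), against 25.3% of tested genes and 12.9% of all genes. The GABPA motif CCGGAAGT was in 1 member, Ndufs3 (2.94%, against 10.2% of tested genes and 4.31% of all genes). The ESRRA motif TNAAGGTCA was in 1 member, Ndufb4 (2.94%, against 0.887% of tested genes and 1.43% of all genes). At least 1 of the 5 motifs was found in 15 of 34 members (44.1%) and in 44.5% of tested genes, so the shares differed by motif while the share with any motif was close to that of tested genes. These matches are letters in a window and carry no test. The promoters of 4 members are shown, 5′ to 3′, with motif matches in capitals: Ndufb3 and Ndufa3, the members with the smallest p over the 4 groups, Ndufa6, which had an unadjusted p under 0.05 in WD-Exos against Sham and holds an NRF1 and an SP1 match, and Ndufs6, the member whose window holds both an NRF1 and a YY1 match.
Ndufb3, chr1:58586147-58586446, plus strand: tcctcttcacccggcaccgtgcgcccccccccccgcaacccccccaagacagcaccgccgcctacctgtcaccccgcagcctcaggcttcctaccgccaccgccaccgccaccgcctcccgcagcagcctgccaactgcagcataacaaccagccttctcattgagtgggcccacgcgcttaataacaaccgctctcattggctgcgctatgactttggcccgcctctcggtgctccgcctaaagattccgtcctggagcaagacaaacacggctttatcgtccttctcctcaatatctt
Ndufa3, chr7:3617123-3617422, plus strand: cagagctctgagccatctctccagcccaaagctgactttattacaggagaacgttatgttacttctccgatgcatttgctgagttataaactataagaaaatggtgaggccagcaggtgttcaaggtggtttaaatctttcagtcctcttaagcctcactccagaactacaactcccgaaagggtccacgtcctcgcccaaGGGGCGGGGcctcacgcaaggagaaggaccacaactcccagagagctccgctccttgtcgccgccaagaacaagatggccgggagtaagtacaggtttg
Ndufa6, chr15:82354242-82354541, minus strand: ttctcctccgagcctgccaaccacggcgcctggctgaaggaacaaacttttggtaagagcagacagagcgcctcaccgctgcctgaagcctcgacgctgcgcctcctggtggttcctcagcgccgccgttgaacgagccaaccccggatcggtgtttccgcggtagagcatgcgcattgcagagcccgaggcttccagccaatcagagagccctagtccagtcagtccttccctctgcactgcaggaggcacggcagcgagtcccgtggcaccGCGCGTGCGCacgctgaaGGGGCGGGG
Ndufs6, chr13:73328433-73328732, minus strand: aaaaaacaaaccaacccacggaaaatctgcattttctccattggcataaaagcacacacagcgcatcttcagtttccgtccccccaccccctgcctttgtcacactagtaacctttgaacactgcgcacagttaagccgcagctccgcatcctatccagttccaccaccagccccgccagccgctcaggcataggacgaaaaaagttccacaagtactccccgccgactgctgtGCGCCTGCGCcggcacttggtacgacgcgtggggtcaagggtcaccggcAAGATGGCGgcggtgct
The Ndufb3 window held none of the 5 motifs. In Ndufa3 the SP1 match began at position -49 from the start. In Ndufa6 the NRF1 match began at 23 and the SP1 match at 41, and in Ndufs6 the NRF1 match began at -16 and the YY1 match at 33.

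Library totals ranged from 24277722 to 28892423 counts, and every one of the 39 tested members had a count in all 24 libraries. Levels are CPM on the TMM scale, which puts counts on a common library total and corrects for library composition. All 15 microglial marker genes were present in each group, with a summed level of 58632 to 100016 CPM. Markers of oligodendrocytes summed to more than 4000 CPM in 3 libraries (WD-Exos replicate 6, ND-Exos replicate 3 and Sham replicate 4). Genes of the immediate early and heat shock responses, which stress and handling induce, had a mean log2(CPM + 1) above 7 in 5 libraries (WD-Exos replicates 1, 2 and 3 and BCAS replicates 1 and 2). Results are given with and without these libraries where they differ.

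Averaged over the 24 libraries and divided by transcript length, member levels spanned a wide range. Ndufa2, an accessory subunit of the peripheral arm, was the highest at 261 CPM per kilobase, followed by Ndufa7 at 243, Ndufa4 at 231, Ndufb8 at 217, Ndufb9 at 210 and Ndufa1 at 203. The lowest tested member with a length was Ndufb2, a membrane arm subunit, at 20.8 CPM per kilobase, and next came Ndufab1, the mitochondrial acyl carrier protein, at 25.6 and Ndufs4, a peripheral arm subunit whose loss in mice is a standard model of complex I deficiency, at 28.1. The ranks of Ndufb2 and Ndufab1 depend on the lengths used, 2.41 and 2.45 kilobases. Undivided, they averaged 50.2 and 62.6 CPM, above Ndufc1 at 35.1 CPM. Ndufa4l2, a paralog of Ndufa4 that hypoxia induces, was the only member with values that was not tested. It had a count in 2 libraries, with 1.46 CPM in WD-Exos replicate 2 and 36.2 CPM in Sham replicate 2, and averaged 1.68 CPM per kilobase. Markers of mural cells, which belong to blood vessels, summed to 1113 CPM in Sham replicate 2, the highest of all libraries. The next highest sum was 228 CPM in Sham replicate 4, and WD-Exos replicate 2 had 4.64 CPM. Whether the Ndufa4l2 counts came from such cells was not tested. The coefficient of variation over the 24 libraries was lowest for Ndufa13 (18.5%) and Ndufa2 (19.7%). Among tested members it was highest for Ndufb4b (81.0%), Ndufv1 (49.7%) and Ndufa10 (40.6%).

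Some members share or may share reads with other genes, so their values are less certain. Ndufb4, a membrane arm subunit, has a copy, Ndufb4c, whose 390-base transcript was 100% identical to part of the 971-base Ndufb4 transcript; GENCODE lists this copy as a processed pseudogene and RefSeq as protein-coding. Ndufb4, Ndufb4b and Ndufb4c had fractional values in all 24 libraries, and Ndufb11 in 8, and 35 of the 40 members had whole counts throughout. Ndufb4 averaged 44.7 ± 25.7 CPM with WD-Exos, 55.0 ± 11.2 with ND-Exos, 53.8 ± 11.1 in BCAS and 53.6 ± 4.24 in Sham (SD, n = 6 each), and the group means of the 2 copies were 5.42 to 7.03 CPM for Ndufb4c and 1.06 to 2.11 CPM for Ndufb4b. Exons of Ndufb6 and Ndufa13 overlap those of a neighbouring gene on the opposite strand over 39% and 30% of their length. Exons of Ndufb9 overlap those of a neighbour on the same strand over 28.6%. Ndufb6, Ndufa13 and Ndufb9 had whole counts throughout, and strand was not stated for the counting. Ndufa4, originally named as a complex I subunit, is now regarded as a subunit of complex IV.

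The nuclear core subunits carry the electron path, and the group means of those described here lay close together. Ndufv1, which binds NADH and flavin, stood at 94.6 ± 44.9 CPM with WD-Exos, 92.5 ± 65.7 with ND-Exos, 80.7 ± 29.6 in BCAS and 84.7 ± 38.3 in Sham (SD, n = 6 each, as below). Ndufv2, its iron-sulfur partner, stood at 83.7 ± 33.6 CPM with WD-Exos, 75.7 ± 32.4 with ND-Exos, 84.1 ± 26.3 in BCAS and 92.3 ± 9.47 in Sham. Ndufs1, the large iron-sulfur subunit, stood at 76.5 ± 31.7 CPM with WD-Exos, 93.2 ± 32.6 with ND-Exos, 90.7 ± 28.6 in BCAS and 83.9 ± 14.2 in Sham. For these 3 subunits of the NADH end every difference between group means was smaller than the largest SD of the groups. Nearer the ubiquinone end, Ndufs3 stood at 85.9 ± 13 CPM with WD-Exos, 71.3 ± 23.1 with ND-Exos, 80.7 ± 37.7 in BCAS and 109 ± 43.6 in Sham. Ndufs7, which holds the last iron-sulfur cluster before ubiquinone, stood at 123 ± 36.9 CPM with WD-Exos, 113 ± 31.2 with ND-Exos, 139 ± 33.4 in BCAS and 123 ± 34.7 in Sham. Ndufs8, which holds a pair of iron-sulfur clusters, stood at 125 ± 22.8 CPM with WD-Exos, 151 ± 39.7 with ND-Exos, 138 ± 29.8 in BCAS and 147 ± 33.2 in Sham. These 3 also differed by less than the largest SD between groups.

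**Figure D1:**
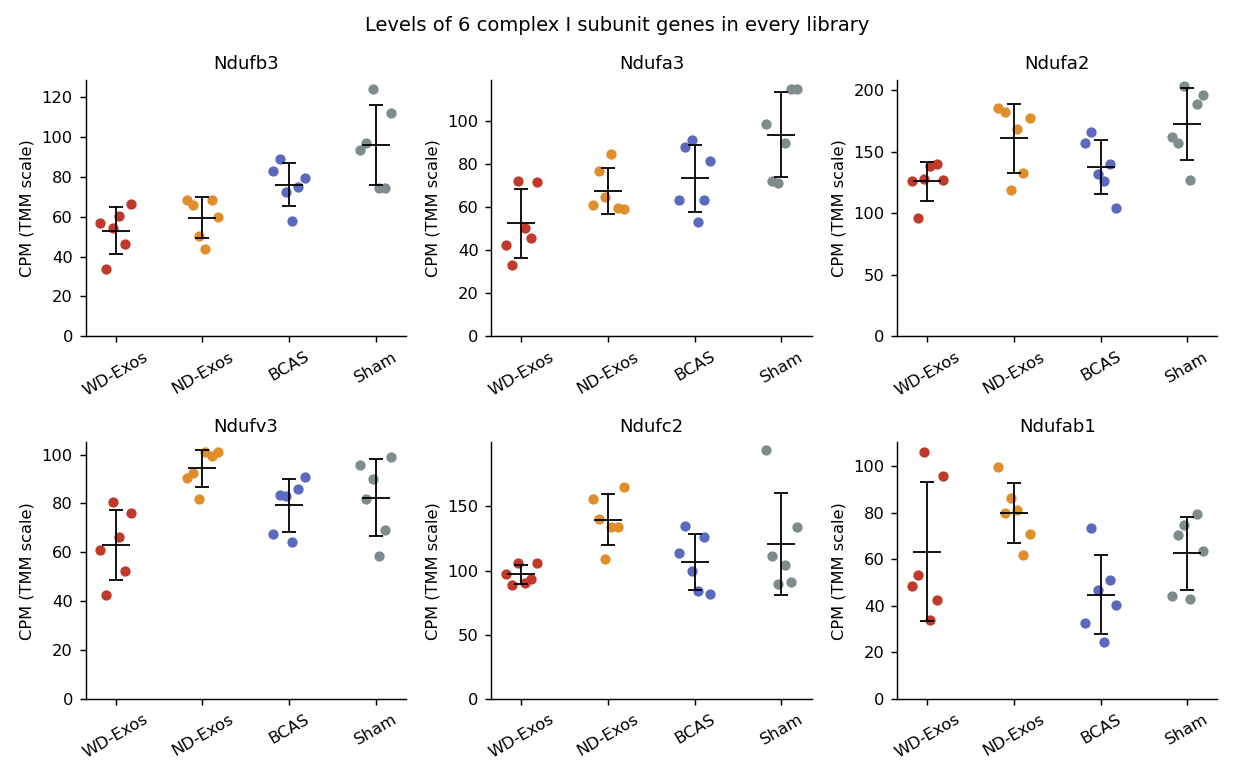
Levels of 6 complex I subunit genes in every library, in CPM on the TMM scale (linear axes from 0), for the WD-Exos, ND-Exos, BCAS and Sham groups. Points are libraries, the horizontal line is the mean and the bars are the SD (n = 6); Ndufb3 lies between 33.9 and 66.4 CPM in WD-Exos libraries and between 74.3 and 124 CPM in Sham libraries, and Ndufa2 lies between 96.4 and 140 CPM in WD-Exos libraries and between 127 and 203 CPM in Sham libraries.

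WD-Exos against Sham sets the BCAS mice given this kind of exosome against sham mice, and its median was the farthest from 0. Of 39 members, 33 had a lower mean level in WD-Exos and 6 a higher one, with a median log2 fold change of -0.28. Over all tested genes 49.5% were lower. Within the level range of the members above 10 CPM, 49.6% of 2727 genes were lower, with a median of 0.01. That range leaves out Ndufb4b and Ndufb4c. Without the 5 libraries high in immediate early and heat shock genes, 32 members were lower and the median was -0.18, and without WD-Exos replicate 2 alone it was -0.19. No member passed edgeR's quasi-likelihood test with Benjamini-Hochberg adjustment over all tested genes, which gives every adjusted p of edgeR below (0 of 39, with 0% called over all genes). At an unadjusted p under 0.05 there were 6 members, all lower, 15.4% of the 39 against 5.39% of all genes in either direction and 2.90% of all genes lower. DESeq2 called 2 members, Ndufb3 and Ndufa3, both lower, and 172 genes in all, and voom with library weights called 0 members and 65 genes. In sorted cells measured in bulk, fewer cells of a type and less RNA per cell cannot be told apart.

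Ndufb3, a small single-pass subunit of the membrane arm, is mutated in some human complex I deficiencies. Its lowest, median and highest levels were 33.9, 55.6 and 66.4 CPM with WD-Exos, 43.7, 62.8 and 68.2 with ND-Exos, 58.0, 77.0 and 89.0 in BCAS and 74.3, 95.0 and 124 in Sham. Every WD-Exos library and every ND-Exos library was below every Sham library, and BCAS overlapped each of the others. WD-Exos averaged 53.0 ± 11.6 CPM against 95.7 ± 19.8 in Sham, a log2 fold change of -0.85 (SE 0.23, unadjusted p = 0.00112, adjusted p = 0.204; DESeq2 adjusted p = 0.00309). It was the 1 member whose WD-Exos and Sham libraries did not overlap, where 0.744% of all genes were lower without overlap. ND-Exos averaged 59.3 ± 10.3 CPM (log2 fold change -0.69 against Sham, SE 0.23, adjusted p = 0.326; DESeq2 adjusted p = 0.0312). Leaving out each library in turn kept the WD-Exos fold change between -0.91 and -0.75 and the edgeR adjusted p at 0.157 or above. In the test of any difference over the 4 groups Ndufb3 had the smallest p of the members (F = 5.47, unadjusted p = 0.00459, adjusted p = 0.337). No member passed that test (0 of 39, with 0.0294% called over all genes), 3 had an unadjusted p under 0.05 against 6.33% of all genes, and DESeq2 called 1, Ndufb3, where voom called 0.

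Ndufa3, another small membrane arm subunit, had lowest, median and highest levels of 33.3, 47.8 and 72.0 CPM with WD-Exos, 59.1, 62.7 and 84.5 with ND-Exos, 53.2, 72.5 and 91.0 in BCAS and 71.2, 94.2 and 115 in Sham. The WD-Exos and Sham libraries overlapped only at the edge, where the 2 highest WD-Exos libraries (71.8 and 72.0) met the 2 lowest Sham libraries (71.2 and 71.9). The means were 52.5 ± 16 CPM with WD-Exos and 93.7 ± 19.8 in Sham, a log2 fold change of -0.84 (SE 0.25, adjusted p = 0.275; DESeq2 adjusted p = 0.021), and over the 4 groups the adjusted p was 0.659. Ndufa2, in the peripheral arm, had lowest, median and highest levels of 96.4, 128 and 140 CPM with WD-Exos and 127, 176 and 203 in Sham, with WD-Exos mostly below (log2 fold change -0.45, SE 0.17, adjusted p = 0.511). The other members with an unadjusted p under 0.05 were Ndufb2 in the membrane arm (36.9 ± 7.80 against 62.1 ± 18.9 CPM, adjusted p = 0.712), Ndufa6 in the peripheral arm (78.6 ± 19.4 against 113 ± 29.8 CPM, adjusted p = 0.673) and Ndufa4 (107 ± 22.6 against 145 ± 34.1 CPM, adjusted p = 0.826). On the higher side, Ndufa9, which holds a tightly bound NADPH and sits where the arms meet, averaged 190 ± 71.6 CPM with WD-Exos and 140 ± 39.7 in Sham, a log2 fold change of 0.43 (SE 0.25, unadjusted p = 0.0894). The next higher members, Ndufb10 (97.3 ± 23.0 against 82.1 ± 21.6 CPM) and Ndufv1 (above), were within their SD, and Ndufv1 was no longer higher without WD-Exos replicate 3 (log2 fold change -0.04) or Sham replicate 2 (-0.004).

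**Figure D2:**
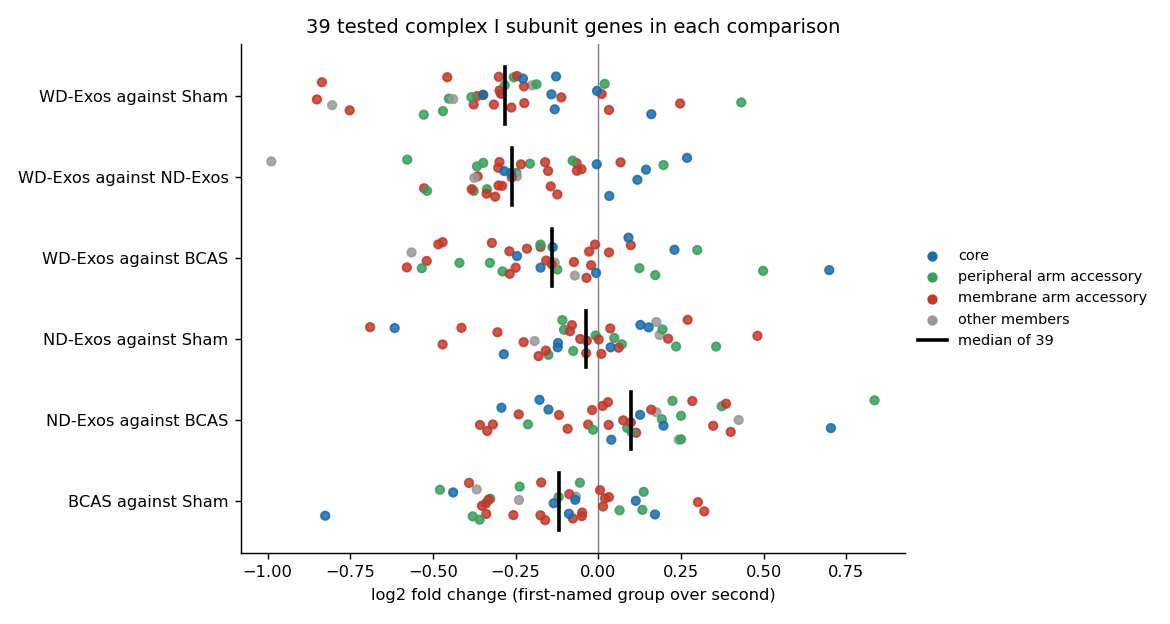
Log2 fold change of the 39 tested complex I subunit genes in 6 comparisons, the group named first over the group named second. Each point is a gene coloured by its place in the complex and the black bar is the median of 39; the medians lie at -0.28 for WD-Exos against Sham and -0.26 for WD-Exos against ND-Exos, and at 0.10 for ND-Exos against BCAS.

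By place in the complex, the accessory subunits of WD-Exos had lower medians than the core. Of 7 core subunits 6 were lower than in Sham (median log2 fold change -0.13). Of 10 peripheral arm accessory subunits 8 were lower (median -0.29), and of 19 membrane arm accessory subunits 16 were lower (median -0.30). These are counts and medians without a test, and no difference between the places was tested.

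WD-Exos against ND-Exos compares both kinds of exosome in mice with the same operation. Again 33 of 39 members were lower with WD-Exos and the median log2 fold change was -0.26, against 50.8% lower over all genes and 51.5% over genes of the same range of levels. Without the same 5 libraries, 3 of them WD-Exos, 28 were lower and the median was -0.15. No member passed the edgeR test (0 of 39, with 0.0196% called over all genes), 2 had an unadjusted p under 0.05 (5.13% of the members against 5.33% of all genes), and DESeq2 and voom called 0 members. Of the core subunits 3 of 7 were lower, with a median of 0.03. Peripheral arm accessory subunits were lower in 9 of 10 cases (median -0.34) and membrane arm accessory subunits in 18 of 19 (median -0.26), the exceptions being Ndufa9 and Ndufa11.

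Ndufv3, a small accessory subunit beside the NADH-binding core, had lowest, median and highest levels of 42.4, 63.6 and 80.5 CPM with WD-Exos and 81.9, 95.9 and 101 with ND-Exos. Ndufc2, a membrane arm subunit, had 88.8, 95.6 and 106 CPM with WD-Exos and 109, 137 and 165 with ND-Exos. For both genes every WD-Exos library was below every ND-Exos library, where 0.225% of all genes were lower without overlap. Ndufv3 averaged 63.1 ± 14.4 CPM with WD-Exos and 94.3 ± 7.54 with ND-Exos, which is -0.58 on the log2 scale (SE 0.21, unadjusted p = 0.0116, adjusted p = 0.594). Ndufc2 averaged 96.9 ± 7.45 CPM with WD-Exos and 140 ± 19.5 with ND-Exos, which is -0.53 on the log2 scale (SE 0.20, unadjusted p = 0.0147, adjusted p = 0.630). Their BCAS and Sham levels, 64.2 to 91.0 and 58.7 to 99.1 CPM for Ndufv3 and 81.7 to 135 and 89.5 to 194 CPM for Ndufc2, overlapped those of both exosome groups. Ndufa2 followed, at 126 ± 15.7 CPM with WD-Exos and 160 ± 27.8 with ND-Exos (adjusted p = 0.956). On the higher side the differences were within the SD: Ndufs3, Ndufa9 (190 ± 71.6 against 165 ± 44.8 CPM) and Ndufs7 had log2 fold changes of 0.27, 0.20 and 0.12, and that of Ndufs7 was -0.01 without WD-Exos replicate 3.

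In WD-Exos against BCAS, 30 of 39 members were lower and the median log2 fold change was -0.14, against 51.1% lower over all genes. Without the 5 libraries high in immediate early and heat shock genes, 3 of WD-Exos and 2 of BCAS, the lean was lost, with 20 of 39 lower and a median of -0.01. The membrane arm accessory subunits were lower in 17 of 19 cases (median -0.18), the peripheral ones in 6 of 10 (median -0.15) and the core in 4 of 7 (median -0.01). No member passed the edgeR test (0 of 39, with 0% called over all genes), 3 had an unadjusted p under 0.05 against 3.71% of all genes, and DESeq2 and voom called 0 members. Among them were Ndufb3 (53.0 ± 11.6 against 76.0 ± 10.6 CPM, log2 fold change -0.52) and Ndufa7, a peripheral arm subunit (109 ± 26 against 146 ± 33.6 CPM, log2 fold change -0.42), the last with ranges of 77.4 to 155 and 111 to 191 CPM that overlapped. Ndufa3 stood at 52.5 ± 16 against 73.4 ± 15.5 CPM (log2 fold change -0.48), and Ndufab1 (63.3 ± 29.9 against 44.8 ± 16.9 CPM) and Ndufa9 (190 ± 71.6 against 154 ± 29.9 CPM) were on the higher side, all with overlapping libraries.

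ND-Exos against BCAS ran the other way for most members. Of 39, 26 were higher and 13 lower with ND-Exos and the median log2 fold change was 0.10, against 49.6% lower over all genes. Peripheral arm accessory subunits were higher in 8 of 10 cases (median 0.21), the core in 4 of 7 (median 0.04) and membrane arm accessory subunits in 11 of 19 (median 0.03). No member passed the edgeR test (0 of 39, with 0.0196% called over all genes), 2 had an unadjusted p under 0.05 against 4.47% of all genes, and DESeq2 and voom called 0 members. Ndufab1, which as acyl carrier protein also serves mitochondrial fatty acid and lipoic acid synthesis, had lowest, median and highest levels of 62.0, 80.4 and 99.7 CPM with ND-Exos and 24.7, 43.6 and 73.2 in BCAS. All but 1 BCAS library (replicate 2) were below every ND-Exos library. The means were 79.9 ± 12.9 CPM with ND-Exos and 44.8 ± 16.9 in BCAS, a log2 fold change of 0.84 (SE 0.32, unadjusted p = 0.0133, adjusted p = 0.615). Ndufc2 stood at 140 ± 19.5 against 107 ± 22 CPM, and on the lower side Ndufb3 (59.3 ± 10.3 against 76.0 ± 10.6 CPM), Ndufs7 and Ndufa7 (126 ± 21.1 against 146 ± 33.6 CPM) had log2 fold changes of -0.36, -0.29 and -0.21.

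BCAS against Sham, which compares the operation without exosomes, had 28 of 39 members lower and a median log2 fold change of -0.12, against 50.1% lower over all genes. The core was lower in 5 of 7 cases (median -0.09), the peripheral accessory subunits in 7 of 10 (median -0.18) and the membrane accessory subunits in 13 of 19 (median -0.09). No member passed the edgeR test (0 of 39, with 0% called over all genes), 1 had an unadjusted p under 0.05 against 6.04% of all genes, and DESeq2 and voom called 0 members. Ndufa2 (137 ± 22.2 against 172 ± 28.8 CPM) and Ndufa4 (112 ± 21.5 against 145 ± 34.1 CPM) were on the lower side, and Ndufb10 (102 ± 43.5 against 82.1 ± 21.6 CPM), Ndufa11 (82.3 ± 20.7 against 66.8 ± 24.3 CPM) and Ndufs7 led the higher side, all within overlapping ranges. In ND-Exos against Sham, 22 members were lower and 17 higher (median -0.04, against 50% lower over all genes). No member passed the edgeR test (0 of 39, with 0.108% called over all genes), 1 had an unadjusted p under 0.05 against 6.66%, DESeq2 called 1 and voom 0. The 1 was Ndufb3, and it was also the 1 member without overlap (0.851% of all genes lower). Ndufs3 (71.3 ± 23.1 against 109 ± 43.6 CPM) and Ndufa3 (67.6 ± 10.6 against 93.7 ± 19.8 CPM) followed on the lower side. Ndufb10 (114 ± 30 against 82.1 ± 21.6 CPM), Ndufab1 (79.9 ± 12.9 against 62.4 ± 15.6 CPM) and Ndufb11 (109 ± 35.2 against 90.0 ± 10.9 CPM) were on the higher side.

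Each group enters 3 of the 6 comparisons, so the counts above are not independent of one another. Within a comparison all members were measured in the same libraries, so members are not replicates and their directions are not independent either. The summed level of the 40 members was 3123 ± 435 CPM with WD-Exos, 3534 ± 298 with ND-Exos, 3340 ± 278 in BCAS and 3669 ± 257 in Sham. It ranged from 2410 to 3709 CPM with WD-Exos, from 3144 to 3946 with ND-Exos, from 3063 to 3721 in BCAS and from 3299 to 3928 in Sham, so all 4 groups overlapped and WD-Exos had the widest spread.

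The lowest library, WD-Exos replicate 2 at 2410 CPM, also had the highest mean log2(CPM + 1) of the 22 immediate early and heat shock genes, of which 21 were tested, at 8.70. That mean was 6.74 ± 1.66 with WD-Exos, 6.18 ± 0.18 with ND-Exos, 5.81 ± 1.75 in BCAS and 5.18 ± 0.52 in Sham. BCAS replicate 2 was second highest of all libraries in stress genes (8.44) and the highest of BCAS in complex I genes (3721 CPM). The remaining libraries above 7 were WD-Exos replicate 3 (7.91, with 3392 CPM), WD-Exos replicate 1 (7.79, 2971 CPM) and BCAS replicate 1 (7.19, 3258 CPM). Without the 5 libraries above 7, the median log2 fold change of the 39 members was 0.15 in ND-Exos against BCAS (12 lower), -0.03 in ND-Exos against Sham (22 lower) and -0.18 in BCAS against Sham (29 lower), and the comparisons of WD-Exos without them are given above. Without the 3 libraries high in oligodendrocyte markers it was -0.37 in WD-Exos against Sham (34 lower) and -0.31 in WD-Exos against ND-Exos (35 lower). Markers of border macrophages, all 9 with values, summed to 221 ± 65.3 CPM with WD-Exos (137 to 321), 458 ± 223 with ND-Exos (234 to 875), 354 ± 176 in BCAS (73.8 to 581) and 653 ± 519 in Sham (282 to 1490), with 1 marker at 0 throughout WD-Exos and 2 throughout BCAS. Markers of neutrophils, 6 of 10 with values, summed to 458 ± 165 CPM with WD-Exos (271 to 676), 300 ± 76.5 with ND-Exos (197 to 425), 449 ± 165 in BCAS (148 to 640) and 253 ± 51.2 in Sham (179 to 328). Of these 6, 4 were at 0 throughout WD-Exos, 1 throughout ND-Exos, 3 throughout BCAS and 3 throughout Sham. The WD-Exos sum thus came from few genes, and the sums alone do not show that neutrophils were present. The mean neutrophil sums were higher in WD-Exos and BCAS, with ranges that overlapped those of ND-Exos and Sham. Both groups also had the lower mean summed level of complex I genes. The part of stress genes, oligodendrocyte RNA, border macrophages and neutrophils in the levels of complex I genes was not tested.

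**Figure D3:**
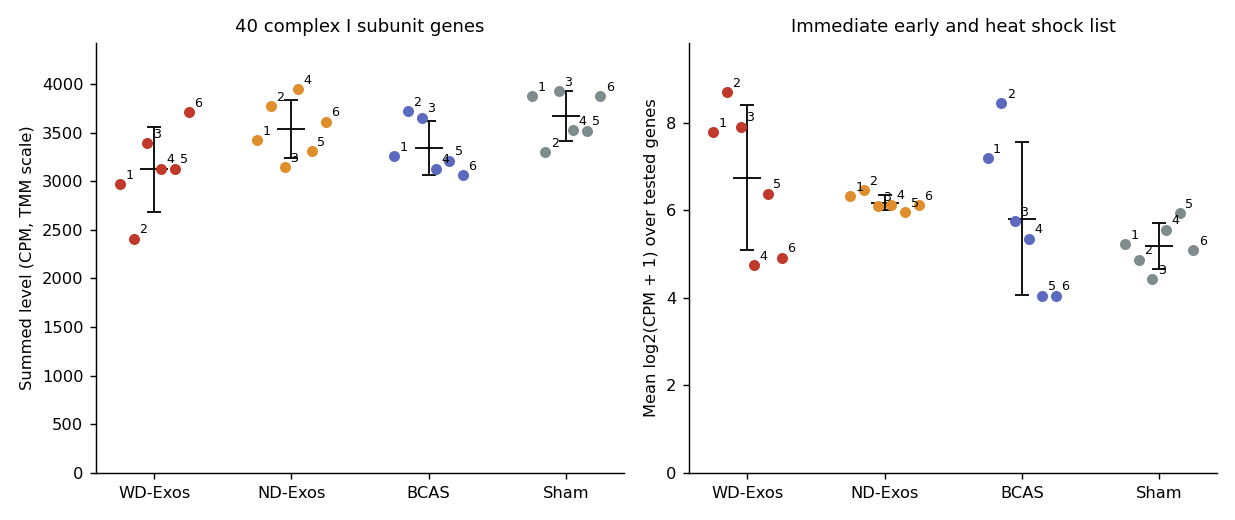
Summed level of the 40 complex I subunit genes (left, CPM on the TMM scale) and mean log2(CPM + 1) of immediate early and heat shock genes (right) in every library of the WD-Exos, ND-Exos, BCAS and Sham groups. Points are libraries with their replicate number, the line is the mean and the bars the SD (n = 6); WD-Exos replicate 2 is the lowest point on the left (2410 CPM) and the highest on the right (8.70).

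Genes that work with complex I were described from lists of textbook members, in WD-Exos against Sham, where the complex I median was farthest from 0. None of these genes passed the edgeR test in this comparison (0 genes called of 10219). Of 9 nuclear genes of complex III, which takes electrons from ubiquinol, all 9 were lower (median log2 fold change -0.34), among them Uqcrh at 158 ± 33.5 against 245 ± 39.4 CPM (adjusted p = 0.223) and Uqcrb at 83.1 ± 15.6 against 111 ± 10.1 CPM. Of 10 genes of complex IV, the cytochrome c oxidase, all 10 were lower (median -0.54). At an unadjusted p under 0.05 there were 8, against 5.39% of all genes in either direction and 2.90% of all genes lower. Cox6b1 stood at 275 ± 54.4 against 414 ± 60.3 CPM, a log2 difference of -0.59 (SE 0.14, adjusted p = 0.114), and Cox7a2 at 111 ± 20.6 against 165 ± 38.4 CPM (adjusted p = 0.396). Of 18 genes of complex V, the ATP synthase, 17 were lower (median -0.27), including its inhibitor Atpif1 at 118 ± 20.6 against 188 ± 31.1 CPM (adjusted p = 0.120) and Atp5mpl at 73.7 ± 28.7 against 126 ± 22.6 CPM (adjusted p = 0.345). Of 4 genes of complex II, which feeds electrons from succinate, 3 were lower (median -0.06), with Sdhc at 175 ± 60.1 against 213 ± 39.9 CPM and Sdha at 396 ± 74.6 against 351 ± 98.7 CPM.

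Genes that build or serve complex I were counted in the same way. Of 19 assembly factors 11 were lower (median -0.23), with Dmac1, which helps to assemble the distal membrane arm, at 33.5 ± 12.6 against 52.3 ± 21.0 CPM and Dmac2 at 22.2 ± 8.10 against 43.3 ± 23.0 CPM. Of 14 supercomplex and NADH shuttle partners 7 were lower (median -0.03), among them Cox7a2l, which joins complexes III and IV, at 496 ± 114 against 633 ± 58.8 CPM (adjusted p = 0.799) and Higd2a at 190 ± 39.9 against 233 ± 27.7 CPM. Of 13 tested regulators of respiratory chain transcription 5 were lower (median 0.45), with Myc at 55.7 ± 36.7 against 11.8 ± 9.34 CPM (adjusted p = 0.989) and Gabpb1 at 31.2 ± 18 against 19.1 ± 20.8 CPM. Cytosolic ribosomal proteins, which lie outside the mitochondrial pathway, were lower in 81 of 82 cases (median -0.58). At an unadjusted p under 0.05 there were 74 of the 82, all lower, against 2.90% of all genes lower. Ribosomal proteins were also lower in BCAS against Sham (82 of 82, median -0.47) and in ND-Exos against Sham (81 of 82, median -0.59). In ND-Exos against Sham 5 of them passed the edgeR test, all lower, with 0.108% called over all genes. Complex IV genes were lower in 10 of 10 cases in BCAS against Sham (median -0.43) and in 9 of 10 in ND-Exos against Sham (median -0.28). In WD-Exos against ND-Exos the same lists divided differently: complexes III and IV were lower in 8 of 9 and 10 of 10 cases (medians -0.24 and -0.29), complex V in 10 of 18 (median -0.16), assembly factors in 10 of 19 (median -0.04) and ribosomal proteins in 44 of 82 (median -0.01). None of these lists was tested as a set.

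**Figure D4:**
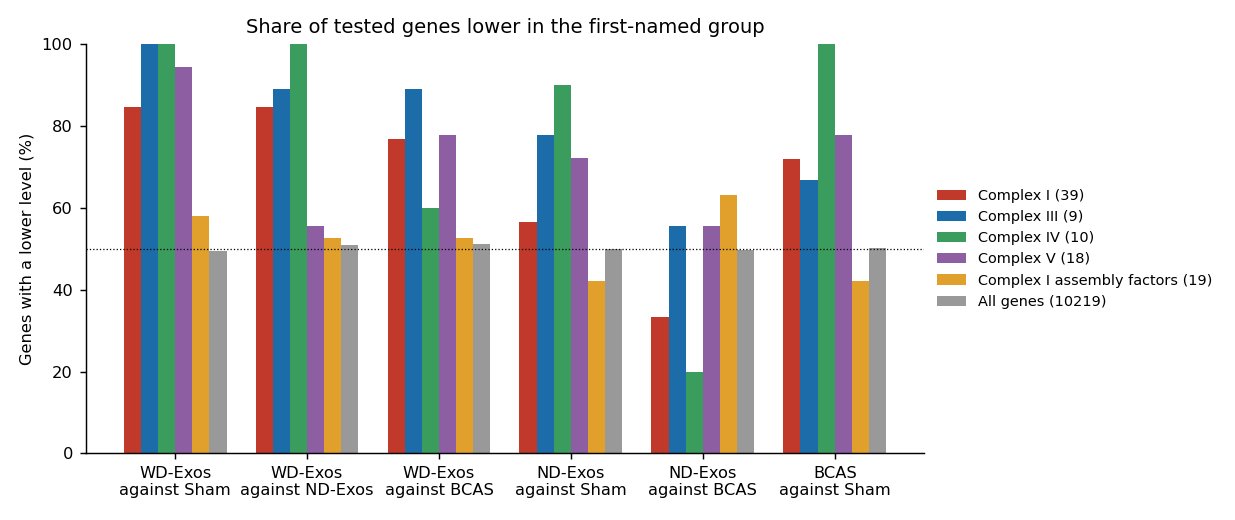
Share of tested genes with a lower mean level in the group named first, in percent, for complex I, III, IV and V genes, complex I assembly factors and all tested genes, in 6 comparisons (the number of genes is in brackets; the dotted line marks 50%). Complex I genes are lower in 84.6% of cases in WD-Exos against Sham and in WD-Exos against ND-Exos, and in 33.3% in ND-Exos against BCAS, while all genes stay close to 50%.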

How the data were processed

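The authors deposited estimated counts for Entrez gene identifiers, with no scaling between libraries visible in the values; 76.8% of identifiers had whole values throughout. Aligner, counter, build and annotation: not given in the sources used here. Of 22064 identifiers, 6186 were blank and 15878 had values; symbols for 22002 came from the RefSeq gene table of GRCm38.p6. Groups were taken from the labels, 6 libraries each.

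The test was run in edgeR 4.0.16 (R 4.3.3) on counts rounded to whole numbers: filterByExpr with a minimum of 10 counts left 10219 genes, TMM factors were 0.936 to 1.17, and 1 robust quasi-likelihood fit of 24 libraries with 4 group means gave 6 two-sided comparisons and a test over the 4 groups, adjusted by Benjamini-Hochberg, threshold 0.05. Alternatives were DESeq2 1.42.0, limma 3.58.1 (voom with library weights), other size factors, filters, covariates and samples. The procedure was also run on simulated data, with larger fold changes than the members showed and only in genes of high level. It therefore does not show how often changes as small as those of the members would be found. CPM per kilobase used the principal transcript of GENCODE vM21.

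The members, the gene lists and the tests were chosen with earlier results of these data known. Named were the core subunits, in each comparison the 3 higher and the 3 lower members with the smallest p, the 3 smallest over the 4 groups, the highest and lowest per length, and up to 2 genes of each other list; other members with an unadjusted p under 0.05, or named for a level, spread or shared reads, were added after their values were seen. Some results that this rule picked are not reported here. Since Smart-seq2 reads carry no molecular identifiers, they are not independent molecules.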

Additional observations from a re-analysis of the deposited data

Results flagged for a closer look

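Of 168 sets of 6 libraries (each member with values, and summed measures, in each group), 8 had 1 library set apart from the other 5 by more than the 95% limit of Dixon's test; chance alone gives about 1 in 20. Ndufa2 was lowest in WD-Exos replicate 2, at 96.4 CPM, where the other WD-Exos libraries held 126 to 140. Ndufb4 stood at 95.2 CPM in WD-Exos replicate 6 (others 25.1 to 42.2) and Ndufb6 at 58.7 CPM in WD-Exos replicate 3 (others 39.3 to 44.3). Ndufs6 stood at 89.1 CPM in ND-Exos replicate 6 (others 45.6 to 57.0), Ndufs7 at 204 CPM in BCAS replicate 6 (others 109 to 134) and Ndufa12 at 113 CPM in Sham replicate 3 (others 46.5 to 71.4). Ndufa4l2 stood at 1.46 CPM in WD-Exos replicate 2 and at 36.2 CPM in Sham replicate 2, with the other libraries of both groups at 0.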

How the results depend on the processing

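In edgeR no complex I gene passed under any alternative; DESeq2 called 2 in WD-Exos against Sham, 1 in ND-Exos against Sham and 1 over the 4 groups, and voom 0. The 6 medians of the members moved by no more than 0.150, the SD of the library means, under any alternative; the lowest and highest when leaving out 1 library were -0.32 and -0.19 in WD-Exos against Sham, -0.29 and -0.18 in WD-Exos against ND-Exos, -0.19 and -0.09 in WD-Exos against BCAS, 0.01 and 0.16 in ND-Exos against BCAS, -0.10 and 0.01 in ND-Exos against Sham, and -0.18 and -0.05 in BCAS against Sham. The one change of sign there was ND-Exos against Sham without Sham replicate 3 (0.005). Of 36 named member results, 356 of 360 values under other settings and 429 of 432 with 1 library left out kept their direction and side of the threshold. The exceptions were the 3 DESeq2 calls (log2 fold changes -0.82 for Ndufb3 and -0.81 for Ndufa3 in WD-Exos against Sham, -0.67 for Ndufb3 in ND-Exos against Sham), Ndufv1 in WD-Exos against Sham (-0.244 without the 5 stress-high libraries and, over single libraries left out, -0.040 without WD-Exos replicate 3 to 0.321 without Sham replicate 1, with -0.004 without Sham replicate 2) and Ndufs7 in WD-Exos against ND-Exos (-0.007 without WD-Exos replicate 3 to 0.252 without ND-Exos replicate 4); the cause was not tested.

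Counts over all genes moved more. DESeq2 called 172 genes in WD-Exos against Sham, 124 in WD-Exos against ND-Exos, 109 in WD-Exos against BCAS, 141 in ND-Exos against BCAS, 219 in ND-Exos against Sham and 193 in BCAS against Sham, and voom 65, 4, 1, 1, 45 and 10 in the same comparisons. In ND-Exos against Sham (11 genes in edgeR) the count was 4 with no filter, 6 with a stricter one, 19 with those groups alone, and 0 without the 3 oligodendrocyte-high libraries. It was 34 without the 5 stress-high libraries, which also gave 21 in WD-Exos against Sham and 27 in BCAS against Sham. With detected genes as a covariate it was 19 in WD-Exos against Sham and 1 in ND-Exos against BCAS, 1 in the last also without the oligodendrocyte-high libraries, and 1 in WD-Exos against ND-Exos with those groups alone. Leaving out 1 library gave 0 to 14 genes in WD-Exos against Sham, 2 to 5 in WD-Exos against ND-Exos, 0 in WD-Exos against BCAS, 1 to 3 in ND-Exos against BCAS, 0 to 29 in ND-Exos against Sham (29 without ND-Exos replicate 3) and 0 to 32 in BCAS against Sham (32 without BCAS replicate 2), and 0 members in each.

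With the replicate number as a block, 0 genes passed in ND-Exos against Sham and no member was called. No pairing by number was visible: over 36 pairs of same-numbered libraries the correlation of deviations over 7043 genes was -0.048 to 0.07. In 5 of the 36 pairs the own number was the best match among the 6 libraries of the other group. The labels do not say what the numbers mark, and these values cannot exclude a shared batch. The sets of libraries left out by stress or oligodendrocyte genes were chosen after seeing the data. Among tested members Ndufb4b, with group means of 1.06 to 2.11 CPM, rests on the fewest counts and had a coefficient of variation of 81.0%.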
